A study of Homo sapiens with 16 samples.

Results

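The clustered protocadherins are the genes PCDHA, PCDHB and PCDHG, which lie in 3 arrays on chromosome 5q31. All protein-coding genes of the count table with these symbols were taken, without regard to their levels, and they numbered 51 of 57773 genes: 15 of PCDHA, 15 of PCDHB and 21 of PCDHG. On GRCh37 the PCDHA array spans chromosome 5 from 140165721 to 140391932, the PCDHB array from 140430959 to 140628933 and the PCDHG array from 140710081 to 140892544. PCDHB16 and PCDHGB5 are annotated as coding members but were not analysed here, since no row of the table carries their gene identifiers.

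Clustered protocadherins are adhesion proteins of the cell surface. Each member has its own promoter and its own large first exon, which encodes the extracellular cadherin repeats and the membrane span. In PCDHA and PCDHG this variable exon is spliced to constant exons at the end of the array, which encode a shared cytoplasmic tail, whereas PCDHB genes lack the constant exons. Neurons choose a few members per cell, and the combination on the surface lets a neuron tell its own branches from those of other cells. Choice of a promoter depends on DNA methylation, on the insulator protein CTCF and on cohesin, which bring the promoter to distal enhancers. The last members of the alpha and gamma arrays, PCDHAC1, PCDHAC2, PCDHGC3, PCDHGC4 and PCDHGC5, are called C-type and are more like each other than like their neighbours.

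RNA-seq of 16 libraries from 4 clear cell renal cell carcinoma lines, namely 786-O and 769-P beside CAKI-2 and A498, was analysed. All cells carried a MuLE lentivirus with spCas9 and 1 sgRNA: a non-targeting guide (sgCtrl, 1 library per line), guide 4 or guide 5 against KDM5C (sgKDM5C, both in exon 8, 1 library each in all 4 lines), or guide 2 (exon 2) or guide 4 (exon 4) against KDM5D (sgKDM5D, 1 library each in 786-O and CAKI-2). KDM5C and KDM5D remove methyl groups from lysine 4 of histone H3 and are encoded on the X and Y chromosomes. The cells were puromycin-selected populations rather than clones, so that a library may mix edited and unedited alleles, and the 2 guides were the only replicates of a genotype. P-values therefore measure the spread between populations of the same parental line. In bulk RNA, fewer cells that express a gene and less RNA per cell cannot be told apart.

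The libraries held 23398449 to 41617439 counts. KDM5C RNA in the sgKDM5C libraries was 26.2% to 57.3% of the sgCtrl level of the same line. KDM5D RNA in the sgKDM5D libraries was 76.2% and 79.1% of that level in 786-O but 102% and 103% in CAKI-2. The sgKDM5C libraries carried no guide against KDM5D. Their KDM5D RNA was 66.0% (guide 4) and 85.8% (guide 5) of sgCtrl for the 786-O line. For CAKI-2 it was 107% (guide 4) and 82.9% (guide 5). The KDM5D values of the 786-O sgKDM5D libraries thus lay between those of its sgKDM5C libraries. The renal transcription factor PAX8 and the epithelial keratins KRT8 and KRT18 were present in all 4 lines, with PAX8 at a mean of 168 to 911 CPM per line (counts scaled to a common library size, here with TMM factors). The hypoxia marker CA9 was at a mean of 0 CPM in 786-O and 769-P, 0.023 CPM in CAKI-2 and 7.01 CPM in A498.

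Promoters of clustered protocadherins are known for a conserved element with the core CGCT, which CTCF binds, and short words of the promoters are shown for that reason. For each array, the word of 9 letters found in the largest number of its promoters was taken (GRCh37, 250 bases before to 50 bases after the transcript start). Between words with the same number, the rarest in the promoters of all protein-coding genes was kept. Its frequency in the array and its share of all promoters are therefore descriptions. In PCDHA this was GATGTCGCT, which 10 of 15 promoters held, against 0.129% of the promoters of 20138 protein-coding genes when both strands were searched. In PCDHB it was GGTGGCGCT, in 13 of 15 promoters against 0.720% of all, and in PCDHG it was GCGCCGCTG, in 10 of 21 promoters against 1.88% of all. No promoter of an array held the word of another array, and no member held its word on the opposite strand.

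The 3 words share the letters CGCT, which by themselves are too common to mark the arrays, since 49 of 51 member promoters and 82.1% of all promoters hold them on one strand or the other. Counted from the transcript start, with negative values before it, the median position of the first letter was -56.5 in PCDHA, -67.0 in PCDHB and -64.5 in PCDHG. The stretches below belong to the members with the highest levels and to the C-type members, on the plus strand, with the word, or the 9 letters most like it, in capitals.
PCDHA4 (chr5:140186565-140186593, word present): ggagccacatGATGTCGCTctttaccaca
PCDHA5 (chr5:140201128-140201156, word present): tcatccacatGATGTCGCTggacaccgga
PCDHA10 (chr5:140235427-140235455, word present): aaagccaccgGATGTCGCTgtcgtccaca
PCDHAC1 (chr5:140305806-140305834, 2 letters differ): cctagaaggtGTGGTCGCTcacgttcacc
PCDHAC2 (chr5:140345924-140345952, 2 letters differ): gggtgaaggaGATGGGGCTggagaggctg
PCDHB2 (chr5:140474130-140474158, word present): agagacgcggGGTGGCGCTgcagccttag
PCDHB5 (chr5:140514762-140514790, word present): taggacgcctGGTGGCGCTgcaggctaag
PCDHB14 (chr5:140602836-140602864, word present): ggagacacatGGTGGCGCTacaggataag
PCDHGB6 (chr5:140787493-140787521, word present): gagcctctggGCGCCGCTGtcggccagtg
PCDHGB7 (chr5:140797152-140797180, 1 letter differs): gagcctctggGCGCCGCCGtcggccagtg
PCDHGC3 (chr5:140855449-140855477, 1 letter differs): gggactctgtGTGCCGCTGtcggccaatg
PCDHGC4 (chr5:140864521-140864549, 1 letter differs): ctgagcccggGAGCCGCTGtctgccaatc
PCDHGC5 (chr5:140868586-140868614, 3 letters differ): tcctcctccaGCTCCCCAGctccactcaa
The 5 C-type members lacked the exact word of their array, as did variable members such as PCDHA9, PCDHA11, PCDHA13, PCDHGA3 and PCDHGB7. PCDHGC3 and PCDHGC4 differed from it by 1 letter, which 15.9% of all promoters also reached on the same strand, and PCDHGC5 by 3 letters, which 94.6% of all promoters reached. The nearest stretch of PCDHAC2 and of PCDHGC5 did not contain CGCT, and in PCDHAC1 it did.

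Reads in the constant exons can fall to several members of PCDHA or PCDHG, so the counts were first searched for a common floor. In the 786-O sgCtrl library PCDHGC3 had 1956 counts while PCDHGA2 had 1, and over the 16 libraries the lowest PCDHG member had 0 or 1 counts. Reads of the constant exons were therefore not added to every member. Whether they were dropped or given to 1 member could not be read from the table, and levels of members of the same array were compared per kb of the first coding exon, whose length ranged from 2352 to 2565 bases.

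**Figure D1:**
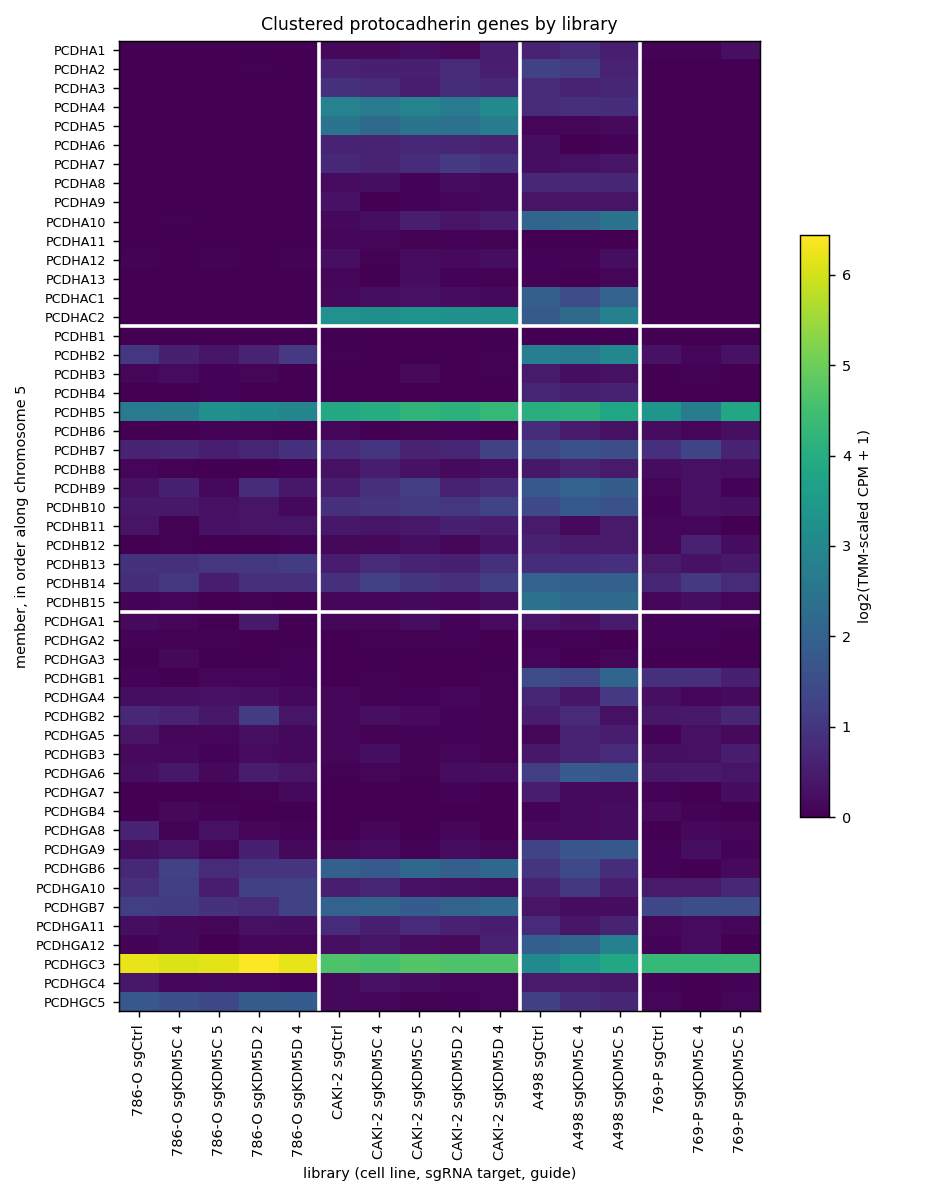
Levels of the 51 members (rows, in order along chromosome 5) in the 16 libraries (columns), as log2 of TMM-scaled CPM plus 1; white lines part the 3 arrays and the 4 lines. The PCDHA rows are dark in 786-O and 769-P, PCDHGC3 is the brightest row in 786-O, CAKI-2 and 769-P, and A498 has the most rows above 1 CPM.

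The first question was which members each line expressed. The arrays differed between the lines as wholes: PCDHA RNA was nearly absent from 786-O and 769-P, PCDHB RNA was highest in A498 and PCDHG RNA was highest in 786-O. Over the sgCtrl and sgKDM5C libraries, the summed level of PCDHA was 0.036 ± 0.0017 CPM in 786-O (SD, n = 3), 22.2 ± 1.82 CPM in CAKI-2, 14.96 ± 2.42 CPM in A498 and 0.094 ± 0.097 CPM in 769-P. In counts, each of the 5 libraries of 786-O had a single PCDHA read, and the 3 libraries of 769-P had 1, 1 and 5, whereas the 5 CAKI-2 libraries had 565 to 1018 and the 3 A498 libraries 320 to 467. No PCDHA value of a silent line came near those of CAKI-2 or A498, and all 7 reads of 769-P were counted for PCDHA1, the first gene of the array. In the annotation used here, 7 of the 5595 exon bases of PCDHA1 are shared with no other gene. Whether these reads arose from PCDHA1 could therefore not be determined.

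In the middle array, whose genes have no constant exons, the summed level of PCDHB was 10.2 ± 0.964 CPM in 786-O (SD, n = 3), 20.5 ± 2.65 CPM in CAKI-2, 37.8 ± 1.53 CPM in A498 and 12.8 ± 2.96 CPM in 769-P. The ranges of 786-O and 769-P overlapped, and both lay below CAKI-2 and A498. The summed level of PCDHG was 77.7 ± 3.44 CPM in 786-O, 32.3 ± 1.14 CPM in CAKI-2, 27.4 ± 6.40 CPM in A498 and 24.1 ± 0.662 CPM in 769-P. Here 786-O stood above the rest, while the A498 range of 21.4 to 34.1 CPM covered those of CAKI-2 and 769-P.

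**Figure D2:**
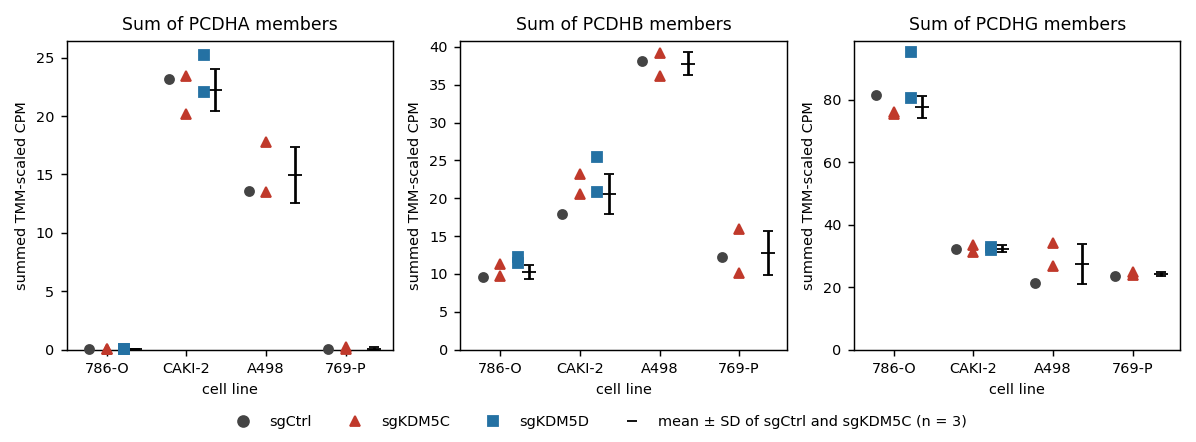
Summed level of each array (y axis, TMM-scaled CPM) by cell line (x axis), with 1 point per library and the mean ± SD of the 3 sgCtrl and sgKDM5C libraries in black. PCDHA lies at 0.206 CPM or less in all 786-O and 769-P libraries and at 13.5 CPM or more in those of CAKI-2 and A498.

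A498 also expressed the broadest set. At a mean of 1 CPM or more, A498 had 4 PCDHA, 7 PCDHB and 6 PCDHG members, CAKI-2 had 3, 2 and 3, 786-O had 0, 1 and 3, and 769-P had 0, 1 and 2. At the other end, PCDHB1 had no count in any library, and 15 members had under 60 counts in sum over the sgCtrl and sgKDM5C libraries and were not tested between lines (4 of PCDHA, 4 of PCDHB and 7 of PCDHG).

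In PCDHG a single gene made up most of the counts. PCDHGC3, a C-type member, took 91.0% ± 2.09 of the PCDHG counts in 786-O (SD, n = 3), 79.5% ± 1.05 in 769-P, 74.7% ± 1.61 in CAKI-2 and, as the lowest, 37.4% ± 2.68 in A498. In 786-O its level was 73.5 CPM in sgCtrl, 67.5 and 70.8 CPM in sgKDM5C and 85.9 and 72.8 CPM in sgKDM5D. In CAKI-2 it was 24.1, 22.7, 25.5, 24.1 and 23.8 CPM in the same order, in 769-P 18.9, 19.0 and 19.5 CPM and in A498 7.40, 10.1 and 13.6 CPM. The lines separated without overlap, in the order 786-O, CAKI-2, 769-P and A498. Reads of the constant exons may be among the PCDHGC3 counts, since the table does not show where such reads went. This limit also applies to the PCDHG sums and to levels per kb, which divide by the first coding exon alone.

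The level of PCDHGC3 was higher in 786-O than in CAKI-2 by 1.57 ± 0.16 (log2 fold change ± SE, adjusted p = 4.5e-07, edgeR quasi-likelihood F-test), than in 769-P by 1.92 ± 0.17 (adjusted p = 8.5e-08) and than in A498 by 2.84 ± 0.17 (adjusted p = 7.8e-10). CAKI-2 and 769-P, its neighbours in this order, differed by 0.35 ± 0.16, which did not pass (adjusted p = 0.068). Per kb of first coding exon, PCDHGC3 stood at 29.1 ± 1.25 CPM in 786-O (SD, n = 3), against 0.808 ± 0.153 CPM for PCDHGC5 and 0.461 ± 0.0807 CPM for PCDHGB7, the next members of the array in that line.

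The other C-type members of PCDHG were low. PCDHGC5 had 2.37 CPM in 786-O sgCtrl, 1.98 and 1.62 CPM in sgKDM5C and 2.73 and 2.65 CPM in sgKDM5D, and 1.32, 0.788 and 0.608 CPM in A498. It had 0 to 4 counts in each library of CAKI-2 and 769-P, and it was higher in 786-O than in A498 by 1.25 ± 0.32 (log2 fold change ± SE, adjusted p = 0.0026). PCDHGC4 had at most 10 counts in any library. It had 9, 10 and 9 counts in A498 against 1, 0 and 1 in 769-P, and it reached 60 counts only through A498, so that no test is given for it between these lines.

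The variable members PCDHGB6 and PCDHGB7, whose genes are separated by PCDHGA10, were the next in the array, and their levels did not run in parallel. PCDHGB7 had 2.65 to 3.57 CPM in CAKI-2, 1.65 to 1.92 CPM in 769-P, 0.723 to 1.36 CPM in 786-O and 0.150 to 0.255 CPM in A498. PCDHGB6 had 2.55 to 3.53 CPM in CAKI-2, 0.677 to 1.40 CPM in 786-O, 0.798 to 1.69 CPM in A498 and 0 to 0.123 CPM in 769-P. PCDHGB7 was thus lowest in A498 and PCDHGB6 in 769-P. PCDHGB7 fell from CAKI-2 to A498 by 4.06 ± 0.32 (log2 fold change ± SE, adjusted p = 1.9e-08), and PCDHGB6 was higher in 786-O than in 769-P by 4.08 ± 0.65 (adjusted p = 6.0e-05).

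A498 instead expressed PCDHGB1, PCDHGA6 and PCDHGA12, the last of which was named after its values were seen. PCDHGB1 had 1.79, 1.58 and 3.27 CPM in A498 and 0.823, 0.853 and 0.493 CPM in 769-P, but 0 to 2 counts in each library of 786-O and CAKI-2. It was higher in A498 than in 769-P by 1.56 ± 0.40 (log2 fold change ± SE, adjusted p = 0.0022). PCDHGA6 had 1.28, 2.63 and 2.39 CPM in A498, above the 0.023 to 0.427 CPM of the other 13 libraries. PCDHGA12 had 2.81, 3.23 and 6.12 CPM in A498 and at most 0.495 CPM elsewhere.

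**Figure D3:**
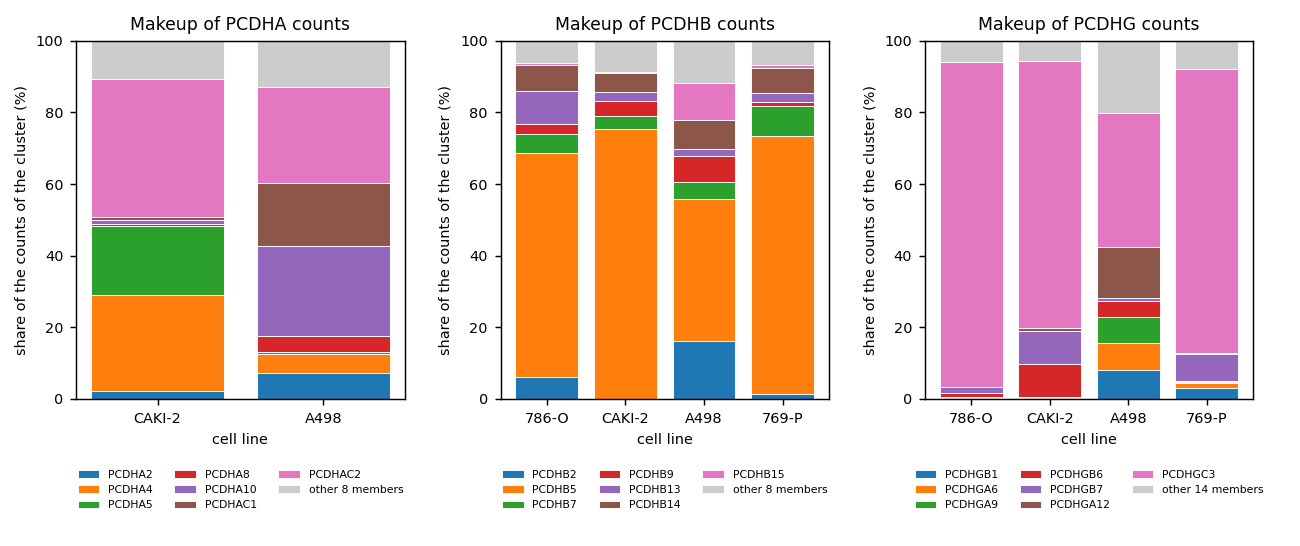
Share of each member in the counts of its array (y axis, %, mean of the 3 sgCtrl and sgKDM5C libraries) by cell line, with the 7 members of the highest share in any line in color and the rest in grey. PCDHA is drawn for CAKI-2 and A498 alone. PCDHGC3 and PCDHB5 lead their arrays in all 4 lines, and A498 has the smallest share of both.

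PCDHB5 led PCDHB in all 4 lines, with 62.7% ± 10.2 of the counts in 786-O (SD, n = 3), 71.9% ± 14.4 in 769-P, 75.3% ± 2.45 in CAKI-2 and, as the lowest, 39.6% ± 3.46 in A498. Its level was 13.8 to 18.6 CPM in the 5 CAKI-2 libraries, 12.9 to 16.7 CPM in A498, 5.62 to 13.2 CPM in 769-P and 5.34 to 8.44 CPM in 786-O. It is the only member above 5 CPM in all 16 libraries beside PCDHGC3. CAKI-2 and A498 differed by 0.10 ± 0.25 (log2 fold change ± SE, adjusted p = 0.75), and 786-O lay below A498 by 1.15 ± 0.26 (adjusted p = 9.2e-04).

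Beside PCDHB5, several other members were high in A498. PCDHB2 had 5.74, 5.44 and 7.03 CPM in A498, 0.287 to 1.10 CPM in 786-O and 0.071 to 0.247 CPM in 769-P, and in CAKI-2 it had 1 count in sgCtrl, 1 in sgKDM5D guide 4 and none in the other 3 libraries. It was higher in A498 than in 786-O by 3.36 ± 0.36 (log2 fold change ± SE, adjusted p = 5.3e-07) and than in 769-P by 5.02 ± 0.43 (adjusted p = 3.6e-08). PCDHB14 had 2.93 to 3.06 CPM in A498 and 0.431 to 1.36 CPM in the other 13 libraries, which overlapped among the remaining lines. PCDHB15, named after its values were seen, had 4.42, 3.68 and 3.69 CPM in A498 and at most 0.178 CPM elsewhere.

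In PCDHA the C-type gene PCDHAC2 was the leading member overall. It had 8.60 CPM in CAKI-2 sgCtrl, 8.19 and 8.82 CPM in sgKDM5C and 8.38 and 8.34 CPM in sgKDM5D, 2.55, 3.68 and 6.12 CPM in A498 and no count in the 8 libraries of 786-O and 769-P. A count of 0 allows up to 3 counts over the 3 sgCtrl and sgKDM5C libraries of a line, so that its mean level in CAKI-2 was at least 238-fold higher than in 786-O and at least 218-fold higher than in 769-P. In A498 it was at least 115-fold and at least 105-fold higher, and CAKI-2 exceeded A498 by 1.15 ± 0.28 (log2 fold change ± SE, adjusted p = 0.0030). These limits cover counting error alone.

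The variable PCDHA members differed between the 2 expressing lines. In CAKI-2 PCDHA4 had 5.22 to 7.35 CPM and PCDHA5 had 3.70 to 5.55 CPM over 5 libraries, against 0.723 to 0.825 CPM and 0.075 to 0.114 CPM in A498. PCDHA4 was higher in CAKI-2 by 2.98 ± 0.27 (log2 fold change ± SE, adjusted p = 1.1e-06). In A498 the leading variable member was PCDHA10, at 3.32, 3.41 and 4.56 CPM, against 0.109 to 0.460 CPM in CAKI-2. PCDHA5 reached 60 counts only through CAKI-2 and PCDHA10 only through A498, so their values are a description, with no test between these lines.

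The C-type gene PCDHAC1 followed PCDHA10: it had 2.89, 1.84 and 3.08 CPM in A498 and 0.106 to 0.230 CPM in CAKI-2. CAKI-2 thus used PCDHA4, PCDHA5 and PCDHAC2, and A498 used PCDHA10, PCDHAC1 and PCDHAC2. Per kb of first coding exon, PCDHAC2 was at 3.33 ± 0.123 CPM and PCDHA4 at 2.501 ± 0.255 CPM in CAKI-2 (SD, n = 3), and in A498 PCDHAC2 was at 1.60 ± 0.711 CPM and PCDHA10 at 1.58 ± 0.290 CPM, which overlapped. The annotated exon bases shared with no other gene differed more, with 3272 in PCDHAC2, 10557 in PCDHA4 and 9322 in PCDHA10. Levels per kb of the first coding exon are not corrected for this difference. PCDHA1, with 7 exon bases shared with no other gene, was called between 786-O and 769-P (adjusted p = 0.021) on 0, 0 and 0 against 1, 1 and 5 counts. Without the 769-P library of sgKDM5C guide 5 it was not (adjusted p = 0.10).

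**Figure D4:**
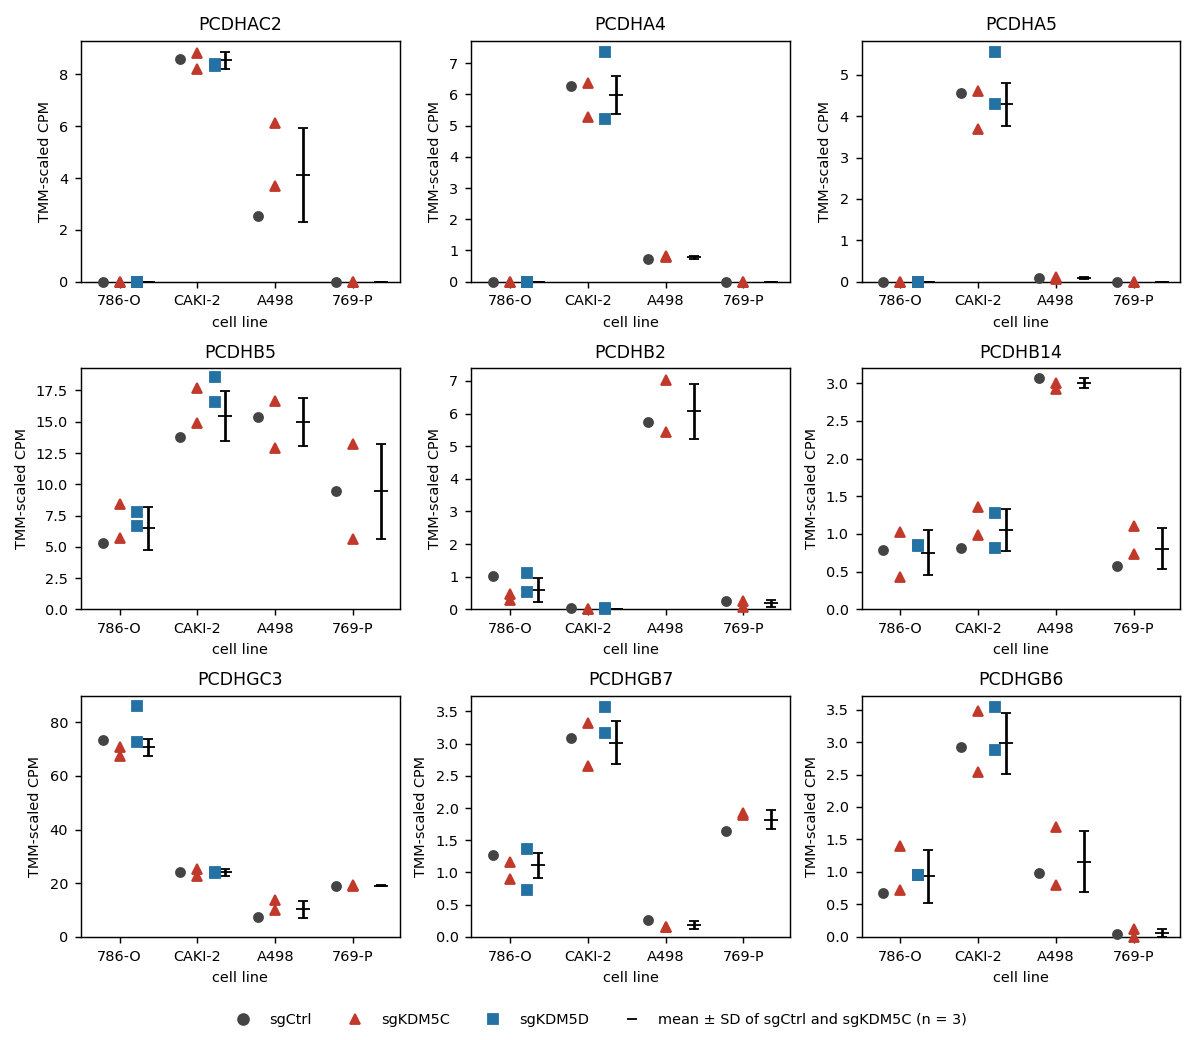
Levels (y axis, TMM-scaled CPM) of the 3 members with the highest mean in each array by cell line (x axis), with 1 point per library colored by sgRNA target and the mean ± SD of the 3 sgCtrl and sgKDM5C libraries in black. PCDHGC3 is at 67.5 CPM or more in all 786-O libraries and at 25.5 CPM or less elsewhere, and the PCDHA members lie at 0 in 786-O and 769-P.

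Between all 4 lines, 35 of the 36 members tested were called at an adjusted p under 0.05, against 93.0% of all genes tested. PCDHGA10, named as the exception after its values were seen, was not called. By pairs, 786-O was higher than CAKI-2 in 7 members (30.6% of all genes) and lower in 20 (35.8%), higher than A498 in 3 (34.3%) and lower in 26 (38.0%), and higher than 769-P in 6 (27.2%) and lower in 5 (27.2%). CAKI-2 was higher than A498 in 8 members (36.7%) and lower in 19 (32.4%), and higher than 769-P in 18 (36.9%) and lower in 5 (30.3%). A498 was higher than 769-P in 28 members (38.8%) and lower in 2 (34.4%). PCDHA accounted for 11 of the 20 members lower in 786-O than in CAKI-2 and for 10 of the 28 higher in A498 than in 769-P. The 11 PCDHA members tested reached 60 counts only through CAKI-2 and A498, so their calls against the other lines followed from the filter. In all 3 arrays, 14 members reached 60 counts only through A498 (5 of PCDHA, 3 of PCDHB and 6 of PCDHG) and 6 only through CAKI-2, and none only through 786-O or 769-P. Members that passed only through A498 made up 13 of the 26 called higher in A498 than in 786-O, 11 of the 19 higher than in CAKI-2 and 11 of the 28 higher than in 769-P. Those that passed only through CAKI-2 made up 5 of the 20 called higher there than in 786-O, 3 of the 8 higher than in A498 and 6 of the 18 higher than in 769-P. These counts are therefore partly set by the filter.

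The 2 members lower in A498 than in 769-P were PCDHGC3, by 0.93 ± 0.17 (log2 fold change ± SE, adjusted p = 1.3e-04), and PCDHGB7, by 3.32 ± 0.33 (adjusted p = 2.1e-07). Rank correlations of all 51 members were 0.813 to 0.938 between libraries of the same line (median 0.899 over 26 pairs) and 0.086 to 0.758 between libraries of different lines (median 0.351 over 94 pairs). Of the pairs of lines, 786-O and 769-P were most alike (0.618 to 0.758), but they share the silent PCDHA members. Over the 36 PCDHB and PCDHG members alone their correlations were 0.434 to 0.649, beside 0.511 to 0.711 for 786-O and CAKI-2. These values describe libraries that share the parental line, and many of the ranks rest on a few reads.

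Of 16 neighbours on 5q31, 14 were tested and all 14 were called over the 4 lines, near the 93.0% of all genes, and HARS1 and IK, on the PCDHA side, were at a mean of 73.3 CPM or more in each line. PCDH1, a protocadherin gene beyond PCDHG that shares no exon with the arrays, followed the same division as PCDHA. It had 212 to 306 CPM in the CAKI-2 libraries and 127 to 175 CPM in those of A498, but 0 to 0.307 CPM in 786-O and 0.249 to 0.412 CPM in 769-P. It was lower in 786-O than in CAKI-2 by 10.47 ± 0.34 (log2 fold change ± SE, adjusted p = 1.1e-12). ARAP3 lies between PCDHG and PCDH1 and encodes a GTPase-activating protein. Its level was 0.0255 ± 0.0223 CPM in 769-P (SD, n = 3) and 22.9 ± 1.47 CPM in 786-O, beside means of 46.1 CPM in CAKI-2 and 47.9 CPM in A498. FCHSD1 and RELL2 also had higher means in CAKI-2 and A498 than in 786-O and 769-P. These were 45.9 and 54.3 against 20.5 and 11.8 CPM for FCHSD1, and 7.70 and 18.9 against 4.59 and 2.21 CPM for RELL2. HARS1 and IK had lower means in CAKI-2 and A498. ARAP3, FCHSD1 and RELL2 were named after their values were seen.

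Among the protocadherins outside the arrays, PCDH1 included again, 10 of 11 had a row and 5 were tested between lines, all 5 of which were called over the 4 lines (93.0% of all genes). PCDH7 was at 44.9 ± 0.698 CPM in CAKI-2 (SD, n = 3) and at a mean of 0.864 to 4.205 CPM in the other lines. Of 23 regulators of the arrays all were tested and 22 were called over the 4 lines, again beside 93.0% of all genes. DNMT3B, a de novo DNA methyltransferase, was at 225 ± 2.59 CPM in CAKI-2, 77.8 ± 8.02 CPM in A498, 63.5 ± 7.88 CPM in 769-P and 29.3 ± 11.2 CPM in 786-O. DNMT3A had the same order of lines, at 15.5 ± 1.30, 13.3 ± 1.70, 5.52 ± 0.633 and 4.38 ± 0.308 CPM. DNMT1 was instead highest in 786-O, at 356 ± 49.7 CPM. It was at 220 ± 23.7 CPM in 769-P, 90.9 ± 7.97 CPM in CAKI-2 and 46.8 ± 2.92 CPM in A498. SMC1A, a core subunit of cohesin, was at 36.6 ± 3.43 CPM in A498 and 152 CPM or more in the mean of each other line. The signalling partners of the cytoplasmic tails (kinases such as PTK2 and subunits of the WAVE complex) had 12 of 13 genes with a row, and all 12 were called over the 4 lines (93.0% of all genes).

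Neuronal markers were measured beside PCDHA, since the arrays are best known from neurons. The summed level of RBFOX3, STMN2, SYT1, SNAP25 and GAP43 was 80.2 to 100.4 CPM in the 5 CAKI-2 libraries, 8.59 to 13.5 CPM in A498, 8.41 to 12.9 CPM in 786-O and 0.493 to 0.675 CPM in 769-P. SYT1, a calcium sensor of vesicles, made up most of it in CAKI-2, at 71.1 ± 9.34 CPM (SD, n = 3), and STMN2 had no count in any library. A498 and 786-O overlapped in this sum although they differed in PCDHA, but its genes ran in opposite directions. SYT1 was at a mean of 6.31 CPM in A498 and 1.65 CPM in 786-O, and RBFOX3 was also higher in A498. SNAP25 was instead at a mean of 1.62 CPM in A498 and 7.68 CPM in 786-O. All 3 neuronal markers tested were called between A498 and 786-O, 2 higher in A498 and 1 higher in 786-O. Markers of blood and endothelium summed to at most 1.48 CPM. The part of these genes in the differences between lines was not tested.

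The second question was whether mutation of KDM5C moved the members. No member passed an adjusted p of 0.05 in any line. In 786-O, 0 of 37 members tested were called by the edgeR test, against 0.00991% of all genes, and 3 had an unadjusted p under 0.05. In CAKI-2 0 were called (0.0% of all genes) and 0 had such a p, in A498 0 (0.00496%) and 4, and in 769-P 0 (0.00496%) and 0. In the mean over the 4 lines 0 were called (0.00991%) with 0 under 0.05 unadjusted, and in the test of a difference between lines 0 (0.0%) with 1. DESeq2 also called 0 in each of these comparisons. The percentages refer to the adjusted p. Here and below, the share of all genes with an unadjusted p under 0.05 alone was not determined. Counts of members at that level are therefore a description. Each line had a single sgCtrl library against 2 sgKDM5C libraries. In no single line was KDM5C itself, the target of the guides, called against sgCtrl, although its RNA was lower in all sgKDM5C libraries. The tests within a line could thus miss changes of that size, and the lack of called members says little.

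At the thresholds of the study, an unadjusted p under 0.05 with a log2 fold change beyond 1, 3 members passed in 786-O, all lower, beside 2.12% of all genes. In CAKI-2 0 passed (1.18%), in A498 2 (1.89%), 1 higher and 1 lower, in 769-P 0 (2.09%) and in the mean over the lines 0 (1.28%). The 3 in 786-O were PCDHB2, PCDHGA5 and PCDHGC4, and the 2 in A498 were PCDHGA5 and PCDHA6. PCDHA6, named because it passed, had 4 counts in A498 sgCtrl and 0 and 1 in sgKDM5C.

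The smallest p in each line fell to genes of very different levels. In A498 it was PCDHGC3, with 7.40 CPM in sgCtrl and 10.1 and 13.6 CPM in sgKDM5C, higher in 2 of 2 libraries and by 0.68 ± 0.22 (log2 fold change ± SE, edgeR adjusted p = 0.83). Without guide 5 it was 0.44. Its difference between lines did not pass (unadjusted p = 0.079, edgeR adjusted p = 1). PCDHGC3 in sgKDM5C was below sgCtrl in both 786-O libraries, on either side of it in CAKI-2 and above it by little in 769-P, at 19.0 and 19.5 CPM against 18.9 CPM. PCDHAC2 was also higher in both sgKDM5C libraries of A498, by 0.94 ± 0.38 (edgeR adjusted p = 0.88), but on either side of sgCtrl in CAKI-2.

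The remaining leads rested on few reads. In 786-O PCDHGC4 had 9 counts in sgCtrl and 2 and 3 in sgKDM5C (edgeR adjusted p = 1). In CAKI-2 PCDHA10 had 4 counts in sgCtrl and 5 and 20 in sgKDM5C (edgeR adjusted p = 1). In 769-P PCDHB10 had 1 count in sgCtrl and 6 and 5 in sgKDM5C (edgeR adjusted p = 1). None of these passed.

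PCDHGA5 had the smallest p in the test of a difference between lines. It had 7 counts in 786-O sgCtrl and 2 and 2 in sgKDM5C, and 2 counts in A498 sgCtrl and 15 and 11 in sgKDM5C (unadjusted p = 0.0099, edgeR adjusted p = 1). In the mean over the 4 lines PCDHGC5 came first: it had 63 counts in 786-O sgCtrl against 58 and 45 in sgKDM5C, and 31 in A498 sgCtrl against 21 and 16. The fitted mean dropped by 0.91 ± 0.46 (log2 fold change ± SE, edgeR adjusted p = 0.90), and both sgKDM5C libraries were lower in 786-O, CAKI-2 and A498. In 769-P it had 2, 0 and 2 counts. Without the 769-P library of sgKDM5C guide 5 the fitted mean was -1.73.

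**Figure D5:**
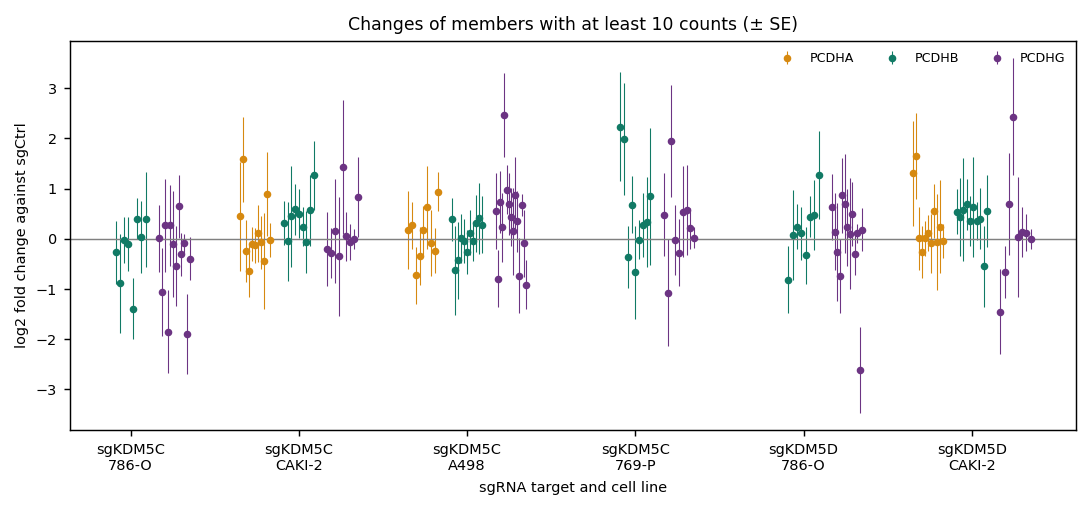
Fitted log2 fold change against sgCtrl (y axis, ± SE) of each member tested that had at least 10 counts over the libraries compared, by sgRNA target and cell line (x axis) and colored by array. The points scatter on both sides of 0 in all 6 comparisons; PCDHA has no point in 786-O and 769-P.

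The sums over the arrays were described without a test. Relative to sgCtrl of the same line, the PCDHG sum was 0.925 and 0.930 in the sgKDM5C libraries of 786-O, 1.03 and 1.06 in those of 769-P, 0.966 and 1.04 in those of CAKI-2 and 1.25 and 1.60 in those of A498. The PCDHB sum was 1.01 and 1.18 in 786-O, 0.826 and 1.30 for 769-P, 1.15 and 1.30 for CAKI-2 and 1.03 and 0.949 for A498. The PCDHA sum was 0.870 and 1.01 in CAKI-2 and 0.992 and 1.30 in A498. PCDHA stayed at 1 read in both sgKDM5C libraries of 786-O. Median log2 fold changes of the members tested were -0.09 for PCDHB and -0.10 for PCDHG in 786-O, 0.34 and 0.44 for 769-P and 0.01 and 0.44 for A498, beside medians over all genes of 0.00, 0.02 and 0.02. The PCDHA median in A498 was 0.14. In CAKI-2 the medians of PCDHA, PCDHB and PCDHG were -0.07, 0.31 and -0.001, beside 0.00 over all genes.

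The guides against KDM5D gave no called member either. The paper describes a KDM5D blot of cells with these guides for 786-O and none for CAKI-2. In CAKI-2 KDM5D RNA was at 103% and 102% of sgCtrl, so that editing in these libraries is not shown. In 786-O 0 of 37 were called by the edgeR test (0.0149% of all genes) with 1 under an unadjusted p of 0.05, and in CAKI-2 0 (0.0%) with 0; DESeq2 called 0 in both. At the thresholds of the study 1 member passed in 786-O, PCDHGC4, which was lower (1.52% of all genes), and 0 in CAKI-2 (0.639%). PCDHGC4 had 9 counts in 786-O sgCtrl and 2 and 1 in sgKDM5D (edgeR adjusted p = 1), and the same sgCtrl library stood in the comparison with sgKDM5C. In CAKI-2 the smallest p belonged to PCDHGA6, with 1 count in sgCtrl and 4 and 5 in sgKDM5D (edgeR adjusted p = 1).

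The PCDHB sum in the sgKDM5D libraries was 1.27 and 1.20 of sgCtrl for 786-O and 1.16 and 1.42 for CAKI-2, so that it exceeded sgCtrl in 4 of 4 sgKDM5D libraries of these lines and in 4 of 4 sgKDM5C libraries. A single sgCtrl library per line is common to these ratios. The PCDHG sum was 1.17 and 0.988 for 786-O and 0.987 and 1.01 for CAKI-2, and PCDHA in CAKI-2 was 0.951 and 1.09. PCDHA in 786-O stayed at 1 read in both sgKDM5D libraries.

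Compared directly, with 2 libraries on each side and no control, sgKDM5C and sgKDM5D differed in 0 of 37 members in 786-O (0.0644% of all genes; 0 under an unadjusted p of 0.05) and in 0 in CAKI-2 (0.0%; 1 under 0.05), by edgeR and by DESeq2. At the thresholds of the study 0 passed in 786-O (2.64%) and 1 in CAKI-2 (1.41%), PCDHGA6, with 2 and 1 counts in sgKDM5C and 4 and 5 in sgKDM5D. In 786-O the smallest p belonged to PCDHB2, with 14 and 8 counts in sgKDM5C and 16 and 30 in sgKDM5D, lower by 1.06 ± 0.52 (log2 fold change ± SE, edgeR adjusted p = 1). Without the library of sgKDM5D guide 4 it was -0.44. Its sgCtrl library had 27 counts, between the sgKDM5D values.

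Among the genes of the lists, KDM5C was the one called by these comparisons. It was called in the mean over the 4 lines, lower by 1.12 ± 0.13 (log2 fold change ± SE, edgeR adjusted p = 0.015), and between sgKDM5C and sgKDM5D in 786-O (edgeR adjusted p = 0.048). In that mean, 1 of 23 regulators was called by edgeR and 3 had an unadjusted p under 0.05. Of 7 other protocadherins, 12 signalling partners and 14 neighbours tested, 0 were called and 0 had such a p.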

How the data were processed

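RNA of 16 puromycin-selected populations (cells in DMEM with fetal calf serum; NucleoSpin RNA, TruSeq Stranded libraries, paired-end NovaSeq) was measured. The authors deposited raw read counts per gene. The submitters' processing notes name Trimmomatic (version 0.38), STAR (version 2.5.2b) and GRCh37; the counting tool and its use of strand are not given in the sources used here. Symbols, exons and transcript starts came from a GENCODE annotation on GRCh37, and promoter sequences from the GRCh37 genome. The members and gene lists were chosen with earlier results of these data known.

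Genes with under 60 counts in sum were left out, as in the study. edgeR 4.0.16 (R 4.3.3) quasi-likelihood F-tests with TMM scaling and Benjamini-Hochberg adjustment over all genes tested were used. The fit between lines took the 12 sgCtrl and sgKDM5C libraries with terms for line and genotype (19364 genes, 7 residual degrees of freedom), and the fit between genotypes took all 16 libraries with 1 mean per group (20175 genes, 6 residual degrees of freedom). Standard errors are the log2 fold change over the root of F. Alternatives were RLE scaling, DESeq2 1.42.0, other filters and designs, the thresholds of the study and leaving out libraries, and the tests were tested on simulated data. Libraries held 23398449 to 41617439 counts, and limits set from counts of 0 cover counting error alone.

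The members named were the 3 of each array with the highest mean level, the C-type members tested, any member called between genotypes (up to 10), the member of smallest p in each such comparison and, for each pair of lines, the 2 called members of largest change in each direction. Others are marked as chosen after their values were seen.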

Additional observations from a re-analysis of the deposited data

Results flagged for a closer look

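The PCDHG sum in the sgKDM5C libraries relative to sgCtrl moved in opposite directions between lines. It was below sgCtrl with both guides in 786-O (0.925 and 0.930) and above it with both guides in A498 (1.25 and 1.60) and in 769-P (1.03 and 1.06). The mean log2 ratio was higher in A498 than in 786-O by 0.61, and in 769-P than in 786-O by 0.17. These differences between lines were not tested, and each line's ratios share 1 sgCtrl library.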

How the results depend on the processing

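No log2 fold change of a named member changed direction. Under other settings 12 of 36 array sums moved by their SD or more, and 10 of 24 counts of members detected moved. Counts of members called between lines stayed within 1.5 times under other scalings, filters, designs and tools (35 to 45 over the 4 lines), and leaving out 1 library gave 29 to 35. The guide numbers did not pair the libraries (correlations of deviations between lines from -0.19 to 0.25), and with guide as a replicate block 35 members were called over the 4 lines and 0 between genotypes. Between genotypes 0 were called under every alternative but the thresholds of the study, which gave 3 (sgKDM5C in 786-O), 2 (sgKDM5C in A498), 1 (sgKDM5D in 786-O) and 1 (sgKDM5C against sgKDM5D in CAKI-2). PCDHA1 between 786-O and 769-P was also not called with 16 libraries (adjusted p = 0.11, edgeR). Without its leading member the PCDHA sum was 13.7 CPM in CAKI-2 and 10.8 CPM in A498, the PCDHB sum 3.75 CPM in 786-O, 5.08 CPM in CAKI-2, 22.8 CPM in A498 and 3.33 CPM in 769-P, and the PCDHG sum 7.05, 8.14, 17.03 and 4.95 CPM in the same order, so that A498 had the highest PCDHG remainder. Scaled to the library total, PCDHG was 33.8 CPM in CAKI-2 and 22.9 CPM in 769-P. At 0.5 CPM, 7 PCDHA members were detected in CAKI-2 and 8 in A498, 5, 6 and 3 PCDHB members in 786-O, CAKI-2 and 769-P, and 6 and 11 PCDHG members in 786-O and A498. At 2 CPM, 1 PCDHB member was detected in CAKI-2 and 1 PCDHG member in 786-O and in 769-P. The median correlation within a line was 0.987 as Pearson's r of log2(CPM + 1). Members with few reads limit what could be detected.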
